A study of Mus musculus with 8 samples.

Results

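The genes described here encode chromatin coregulators and histone modifying enzymes, 47 of the 21938 protein-coding genes in the annotation used. They comprised 9 acetylases, 11 deacetylases, 6 corepressors, 3 readers of acetylated chromatin, 6 coactivators, 4 Polycomb proteins, 3 demethylases, 3 H3K4 methyltransferases and 2 SWI/SNF subunits. A region was assigned to one of these genes when its centre had that gene's transcript start as the nearest protein-coding start (GENCODE release M21, mm10), and regions with a centre within 100 kb of a start were counted as well. The nearest-start rule gave 40 of the 11179 differential regions placed on chromosomes.

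CUT&RUN for H3K27ac, in which an antibody guides a nuclease to chromatin carrying the mark, was performed on primary mouse myotubes, the fused muscle cells formed by cultured satellite cells. Myotubes from Nrip1KO and Ctrl cells, both differentiated for 4 days, were each profiled with anti-H3K27ac and with IgG, giving 4 groups of 2 libraries. Nrip1 encodes RIP140, a nuclear receptor coregulator that recruits other coregulators to its partners, and the comparison asked which regions carried more or less of the mark without it. Per the study, the KO cells came from Nrip1 fl/fl mice carrying Cre under the MCK promoter, which is active in heart and skeletal muscle, and Cre-negative littermates served as controls. The labels give the genotype alone and do not say whether replicates were separate cultures. Per the study, nuclei were pooled and then divided among the antibodies, so H3K27ac and IgG libraries can share a pool of nuclei. Age and sex of the donor mice are not given by the labels. Satellite cells came from gastrocnemius muscle and were enriched by preplating, so some cells of other types can remain.

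The deposited data are 2 lists of genomic intervals, increased and decreased, that the authors had selected at a 2-fold or greater difference in peak intensity in KO myotubes. They hold positions alone. How large a difference was, how far replicates varied, how deeply they were sequenced and how high the IgG signal was are therefore unknown here, and every count below is a description without a test. A muscle cell identity cannot be checked from lists of differential regions alone, and a smaller share of one cell type cannot be told apart from less acetylation per cell. Of all 11179 regions, 3917 were increased and 7262 decreased in KO myotubes (35.0% increased). The direction differed by chromosome, from 97.7% increased on chromosome 7 and 69.1% on chromosome 10 to 7.80% on chromosome 16 and 7.53% on chromosome 4. With no value per library, genotype and library cannot be told apart as its source. Nrip1 itself lies on chromosome 16. It had 3 decreased nearest regions and no increased region within 100 kb of its starts, which does not measure the deletion.

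Acetylation of histone H3 at the site profiled here marks active promoters and enhancers. It is written mainly by the related acetylases p300 and CBP, removed by class I deacetylases that work inside corepressor complexes, and bound by bromodomain proteins, while Polycomb proteins methylate the same residue and thereby compete with the acetyl mark. In muscle these factors act with MyoD, MEF2 and nuclear receptors, and the balance of acetylases against deacetylases is a well known step in differentiation. RIP140 is known to bind CtBP proteins and histone deacetylases, so several of the genes below encode partners of the deleted protein.

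Regions of both directions lay nearest to coregulator genes. Of the 40 nearest regions, 19 were increased and 21 decreased in KO myotubes. This is 47.5% increased (95% Wilson interval, 32.9 to 62.5, counting error only), beside 35.0% of all regions. Regions enter that interval as separate draws, which they are not, since some genes had several. Direction differed by chromosome and these genes are not spread over chromosomes as all regions are, so the shares are not like for like. At least 1 increased region was nearest to 9 of the 47 genes (19.1%), compared with 10.6% of all protein-coding genes. At least 1 decreased region was nearest to 15 genes (31.9%), compared with 17.8% of all protein-coding genes. Regions of either direction were nearest to 21 genes (44.7%, background 25.4%). The genes were divided into 6 with increased regions only, 12 with decreased regions only, 3 with both (Crebbp, Tbl1xr1 and Ncoa3) and 26 with none. Adding up, over the 47 genes, the share of coding genes with such a region on each gene's own chromosome gave 4.86 genes for increased and 8.05 for decreased regions. The genes had been chosen with results of these lists known, so their excess over other genes is a description of the choice as much as of the cells.

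Within 100 kb of a start, increased regions were found for 17 of the 47 genes (36.2%, background 24.1%) and decreased regions for 29 (61.7%, background 42.7%). Either direction was found for 40 genes (85.1%, background 57.9%). These windows held 107 regions, 40 increased and 67 decreased, and in 72 of them another gene had the nearer start. The coregulator genes also owned more sequence than most genes. The stretch of chromosome closer to a gene's starts than to those of any other coding gene had a median of 63.8 kb for them and 45.0 kb for all coding genes. Counted per Mb of that stretch, they had 2.87 increased and 3.18 decreased regions, against 1.44 and 2.66 for all coding genes. Without Tbl1xr1, whose stretch alone spanned 1849 kb, the densities were 3.15 and 3.78.

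The increased regions were concentrated on the chromosomes where most regions were increased. Chromosome 7 carried 5 of the genes and 10 of the 19 increased regions, with no decreased one. On chromosomes 4, 7, 10 and 16 together, 11 genes had 13 increased and 3 decreased nearest regions (81.2% increased), where 46.2% of all regions were increased. That 46.2% pools chromosome 7 (97.7% increased) with chromosomes 4 and 16 (7.53% and 7.80%). Since 10 of the 13 increased regions lay on chromosome 7, the 2 shares are not like for like. The 36 genes outside these 4 chromosomes had 6 increased and 18 decreased nearest regions (25.0%, Wilson interval 12.0 to 44.9), beside 30.2% of all regions there. Tbl1xr1 alone gave 4 of the 6 increased and 3 of the 18 decreased regions. The interval counts regions as separate draws, which they are not. Of these 36 genes, 3 had an increased nearest region (8.33%, against 9.63% of the other chromosomes' coding genes) and 13 had a decreased one (36.1%, against 18.3%). Their density was 1.12 increased and 3.35 decreased regions per Mb, against 1.07 and 2.48 for all coding genes on those chromosomes. On chromosomes 4, 7, 10 and 16, where a gene's regions had the main direction of its chromosome, a change at the gene and the chromosome's shift cannot be told apart.

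**Figure D1:**
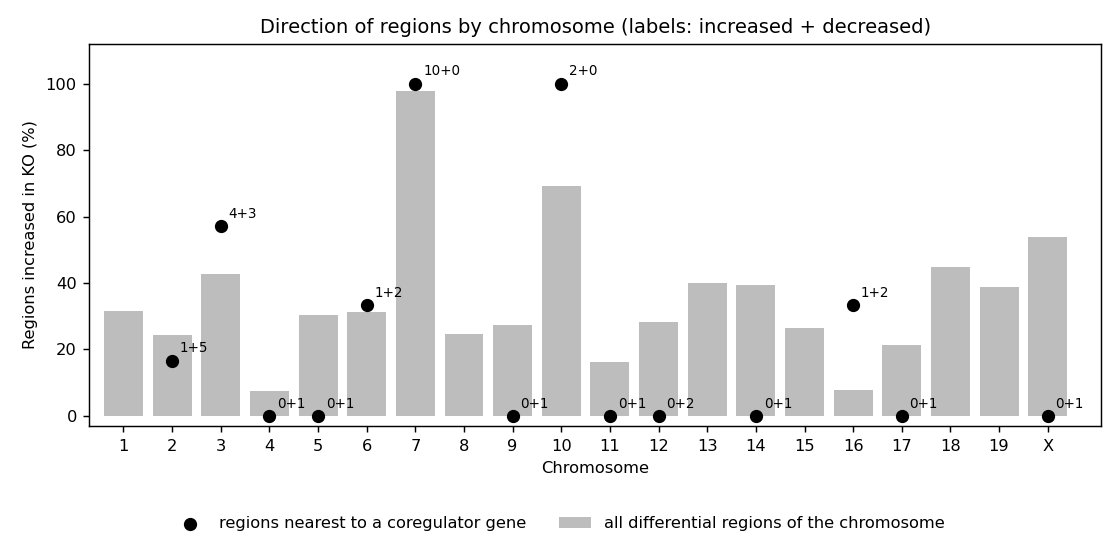
Share of regions increased in KO myotubes, in percent (y axis), for each chromosome (x axis). Grey bars stand for all differential regions and black points for regions nearest to a coregulator gene, with the numbers of increased and decreased regions printed beside each point. The 10 regions at coregulator genes on chromosome 7 were all increased, where the grey bar stands at 97.7%, and chromosome 3 is the only other chromosome with more than 2 increased ones.

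The acetylases include the main writers of the mark, p300 and CBP. Of their 9 genes, 1 had increased nearest regions only (Kat8), 2 had decreased ones only (Kat2b and Kat6b), 1 had both (Crebbp) and 5 had none, although each of the 5 had a region within 100 kb. Crebbp encodes CBP, one of the pair of enzymes that acetylate H3K27. It had 1 increased intronic region of 2020 bp (chr16:4106030-4108049) and 2 decreased intronic regions of 638 bp each (chr16:4156663-4157300 and chr16:4204966-4205603). The increased region lay 106958 bp downstream of the outermost Crebbp start and only 10913 bp upstream of an internal one, and it was no longer assigned to Crebbp when outermost starts alone were used. It was one of the 66 increased regions of chromosome 16, which had 780 decreased ones. The partner gene Ep300, which encodes p300, had a single decreased region within the window, 65759 bp downstream of its nearest start and 149 bp from a start of Rangap1.

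Kat2b encodes PCAF, an acetylase of SAGA-type complexes that is known to acetylate MyoD. Its decreased region (chr17:53661076-53661796, 721 bp, intron) was 2041 bp from an internal start and 94575 bp from the outermost one, so this call also rested on short transcripts. An increased region 29365 bp from a Kat2b start lay 518 bp from a start of Sgo1. Kat2a, the GCN5 paralog, had no nearest region. It had 2 decreased regions in its window, the closer at 16588 bp upstream and 4028 bp wide, in an intron of Rab5c. Kat6b encodes MORF, a MYST-family acetylase. It had a decreased intronic region (chr14:21558664-21559485, 822 bp) 42323 bp downstream of a start, and a further decreased region at 96235 bp. Its paralog Kat6a had the opposite direction in its window, with 1 increased region 52391 bp upstream and nearer to Ap3m2.

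Kat8 encodes MOF, which acetylates histone H4. Its increased region (chr7:127910603-127913393, 2791 bp) covered the Kat8 start, with the centre 518 bp upstream. All 8 regions within 100 kb of Kat8 were increased, and 7 of them were nearer to other genes, among them Vkorc1, Prss36, Pycard and Trim72. Kat5 and Kat7 encode TIP60 and HBO1, also of the MYST family. Kat5 had 5 decreased regions in its window and no increased one, the closest being a 1146 bp region over the Rnaseh2c promoter with its centre 1447 bp from a Kat5 start. Kat7 had 4 decreased regions in its window, between 33195 and 86196 bp from its starts, all nearer to Tac4, Fam117a or Slc35b1. Acetylase windows therefore held decreased regions only for 5 genes, increased only for 2 (Kat8 and Kat6a) and both for 2 (Crebbp and Kat2b).

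The deacetylases include the class I enzymes that remove the mark. Of their 11 genes, 2 had increased nearest regions only (Hdac2 and Sirt1), 2 had decreased ones only (Hdac8 and Hdac11) and 7 had none. Hdac2 is a class I enzyme of the SIN3, NuRD and CoREST complexes. The increased region assigned to it (chr10:37047182-37048748, 1567 bp) was intergenic and 49793 bp downstream of its closest start. Hdac1, the paralog that shares these complexes, had no nearest region, and the 2 decreased regions in its window lay 67894 and 76682 bp upstream, at Dcdc2b and Iqcc on chromosome 4. Hdac8, another class I enzyme, had a decreased region at its promoter (chrX:102504396-102504896, 501 bp), 95 bp from the nearest start and 713 bp from the outermost one. It was the only region within 100 kb of Hdac8, on a chromosome where 53.8% of regions were increased.

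Hdac11 encodes the sole class IV deacetylase. It had 2 decreased nearest regions, one of 2272 bp (chr6:91163217-91165488) and one of 501 bp (chr6:91172466-91172966). Both lay inside the gene, 1299 and 952 bp from internal starts and 7687 and 16051 bp downstream of the outermost start. A further 2 decreased regions stood in the window, 29838 bp upstream and 96152 bp downstream, so that all 4 regions around Hdac11 were decreased. Hdac6, a mainly cytoplasmic deacetylase of tubulin, had 1 increased region at 34617 bp that lay at the Timm17b promoter. Hdac3, the catalytic subunit of NCoR complexes, and Hdac10, a polyamine deacetylase, had no region within 100 kb. Their closest regions were decreased, at 124623 and 174448 bp.

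The sirtuins are NAD-dependent deacylases that couple energy state to protein acetylation. Sirt1, the nuclear sirtuin that deacetylates PGC-1α in muscle, had an increased intronic region (chr10:63339726-63340358, 633 bp) centred 1007 bp upstream of an internal start, which is also the start of its RefSeq promoter entry. It was 41662 bp from the outermost start. The other region in its window was increased too, at 94568 bp. Sirt2 and Sirt3, on chromosome 7, had 2 increased regions each in their windows and no decreased one. The closest to Sirt2 lay 24264 bp downstream of a start, at the Hnrnpl promoter. The closest to Sirt3, the main mitochondrial sirtuin, was centred 406 bp upstream of a Sirt3 start and 243 bp from a Psmd13 start, so it was assigned to Psmd13, and it went to Sirt3 when outermost starts were used. Sirt6, a chromatin-bound sirtuin on chromosome 10, had 2 decreased regions at 51514 and 69400 bp, nearer to Tle2 and Aes, where 69.1% of regions on that chromosome were increased.

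The corepressors had 9 increased and 5 decreased nearest regions over 6 genes. Their genes owned 2.58 Mb, and per Mb this was 3.49 increased and 1.94 decreased regions, beside 2.87 and 3.18 for all 47 genes. Ctbp2 and Tbl1xr1 held 12 of these 14. CtBP proteins are corepressors that RIP140 recruits, and their 2 genes had opposite directions. Ctbp2 had 5 increased nearest regions and no decreased one, and the other 2 regions in its window were increased as well. The widest (chr7:133123016-133125237, 2222 bp) covered the outermost start, with its centre 228 bp downstream. Regions at chr7:133116010-133117958 (1949 bp) and chr7:133119385-133120450 (1066 bp) followed inside the gene, and 2 of 501 bp (chr7:133059140-133059640 and chr7:133085356-133085856) lay further in. These 4 also fell within the annotated span of a transcript of Fgfr2. Such a count of 5 or more was reached by 1.98% of coding genes. Ctbp2 owned a stretch of 365 kb (median 45.0 kb for all coding genes) on a chromosome with 97.7% of its regions increased, so that share is not a like comparison.

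Ctbp1 had 1 decreased nearest region, the widest of the 40 at 3793 bp (chr5:33237633-33241425). It was intergenic, 9721 bp downstream of a start at the end of the gene and 35465 bp from the outermost start, and it was not assigned to Ctbp1 with protein-coding transcripts alone. The 2 other regions in the Ctbp1 window were decreased too, both nearer to Maea. Chromosome 5 had 30.3% of its regions increased, whereas Ctbp2 lies on chromosome 7, so each paralog had the majority direction of its chromosome.

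Tbl1xr1 encodes TBLR1, a subunit of the NCoR and SMRT complexes. It had 7 nearest regions, a count reached by 0.862% of coding genes, spread over a stretch of 1849 kb with no other coding start. The 4 increased ones lay 464426 to 734589 bp upstream (chr3:21341813-21342313, chr3:21403514-21404237, chr3:21580326-21580826 and chr3:21611912-21612541) and were 501 to 724 bp wide. A decreased region of 1033 bp lay among them at 573189 bp (chr3:21502947-21503979). The 2 regions inside the gene were both decreased (chr3:22096486-22099272, 2787 bp, and chr3:22190390-22191108, 719 bp). Thus the increased regions were all distant from the gene and the intronic regions all decreased. With all annotated genes as candidates, the increased regions were no longer assigned to Tbl1xr1.

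Rcor1 encodes CoREST, the scaffold that joins LSD1 to HDAC1 and HDAC2. Its nearest region was decreased and intronic (chr12:111093634-111094429, 796 bp, 54233 bp from a start), and it went to another gene when all annotated genes were candidates. There were 4 more decreased regions 47686 to 90862 bp upstream around Ankrd9. Ncor1, the corepressor that carries HDAC3 to nuclear receptors, had no nearest region. Its window held 4 decreased regions, the closest 66570 bp downstream and 3 of them around or beyond Adora2b. The window also held 1 increased region at the Cenpv promoter, 79652 bp away. Sin3a, the scaffold of the SIN3 complex, had 1 decreased region in its window, 17303 bp from its start and 4 bp from a start of Man2c1.

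The readers had decreased regions only. Brd3, a BET bromodomain protein, had 1 nearest region (chr2:27496060-27496865, 806 bp), intronic and 11200 bp downstream of its outermost start. Zmynd8, which combines a bromodomain with a PHD finger and a PWWP domain, had 3, all intronic (chr2:165825943-165827378, chr2:165830858-165831960 and chr2:165853374-165854486, with widths of 1436, 1103 and 1113 bp). The last was centred 1808 bp upstream of an internal start and 4243 bp downstream of the start in its RefSeq promoter entry. A count of 3 or more was reached by 5.62% of coding genes, although Zmynd8 owned a stretch of 135 kb (median 45.0 kb for all coding genes). The study reported Zmynd8 RNA as upregulated in a fast-twitch muscle of the knockout mice, sedentary and trained. That is another measure and another tissue, and RNA of these myotubes was not examined here. Brd2 had 1 decreased region in its window, 50043 bp away in an intron of Col11a2. Chromosome 2, which carries Brd3 and Zmynd8, had 24.4% of its regions increased, and none of the 3 readers lies on a chromosome whose regions were mostly increased.

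The coactivators of the NCOA family had few nearest regions. Ncoa3 (SRC-3) had 2 in its introns with opposite directions, an increased one (chr2:166000728-166001634, 907 bp) and a decreased one (chr2:166010892-166012255, 1364 bp). They stood 8544 and 18936 bp downstream of the same start, and 3 more decreased regions in the window were nearer to Sulf2. Ncoa3 lies 93619 bp from Zmynd8 on chromosome 2, so their 100 kb windows overlap. Ncoa1 (SRC-1) had a decreased intergenic region of 1990 bp (chr12:4522609-4524598), 46421 bp upstream of its start, which went to another gene when all annotated genes were candidates. Med1, the Mediator subunit that binds nuclear receptors, had 1 increased region at 21586 bp in an intron of Fbxl20. Ncoa2, Ncoa4, known for its role in ferritin turnover, and Ncoa6 had none within 100 kb, their closest regions being decreased at 103596, 189876 and 116326 bp.

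The Polycomb genes had increased nearest regions only, 5 in all. Eed, the subunit of Polycomb repressive complex 2 that binds methylated H3K27, had 4 of these. With all annotated genes as candidates, none of the 4 was assigned to Eed. The first (chr7:89979888-89981447, 1560 bp) covered the Eed start. The others lay upstream at 49144 bp (chr7:90029225-90031030, 1806 bp), 69386 bp (chr7:90048766-90051972, 3207 bp, the widest increased region of the set) and 73201 bp (chr7:90053571-90054797, 1227 bp). All 7 regions in the Eed window were increased, and the closest decreased region was 14263735 bp away. Ezh2, the methyltransferase of the same complex, had a 501 bp increased region 578 bp upstream of its outermost start (chr6:47595669-47596169). A second increased region stood 40028 bp downstream, at Cul1. Chromosome 6 had 31.3% of its regions increased, and Ezh2 was the only gene of the 47, outside chromosomes 4, 7, 10 and 16, with an increased region at its promoter. Suz12, a further core subunit, had 3 decreased regions in its window (27117 to 60812 bp, at Crlf3 and Atad5). Ezh1, the paralog of Ezh2, had its closest region, a decreased one, at 126765 bp.

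Demethylases had decreased nearest regions only. Kdm1a encodes LSD1, which removes methyl groups from H3K4 inside CoREST. Its decreased region (chr4:136602042-136602671, 630 bp) was centred 48 bp upstream of one start and 367 bp downstream of the outermost one. Chromosome 4 had 7.53% of its regions increased. Kdm6b, which encodes JMJD3 and removes H3K27 methylation, had a 501 bp decreased region 2080 bp upstream (chr11:69415505-69416005) and another at 28922 bp. Kdm6a, the X-linked relative that encodes UTX, had no region closer than an increased one at 279632 bp.

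Among the H3K4 methyltransferases, Kmt2a (MLL1) had a decreased intronic region (chr9:44855321-44856885, 1565 bp), 7919 bp upstream of an internal start and 25193 bp downstream of the outermost one. It went to another gene when all annotated genes were candidates. Its window also held a decreased region 41699 bp upstream and an increased one at the Ift46 promoter, 46548 bp away. Kmt2c and Kmt2d, the enzymes that place H3K4 methylation at enhancers, had decreased regions only in their windows, 1 at 97859 bp and 2 at 68205 and 77234 bp. The SWI/SNF subunit genes had no nearest region. Smarca4, which encodes the BRG1 ATPase, had 2 decreased regions 47461 and 49139 bp upstream, both in an intron of Carm1, itself a coactivator gene. Smarcd3, which encodes the BAF60C subunit used in heart and muscle, had 1 decreased region 31806 bp upstream.

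**Figure D2:**
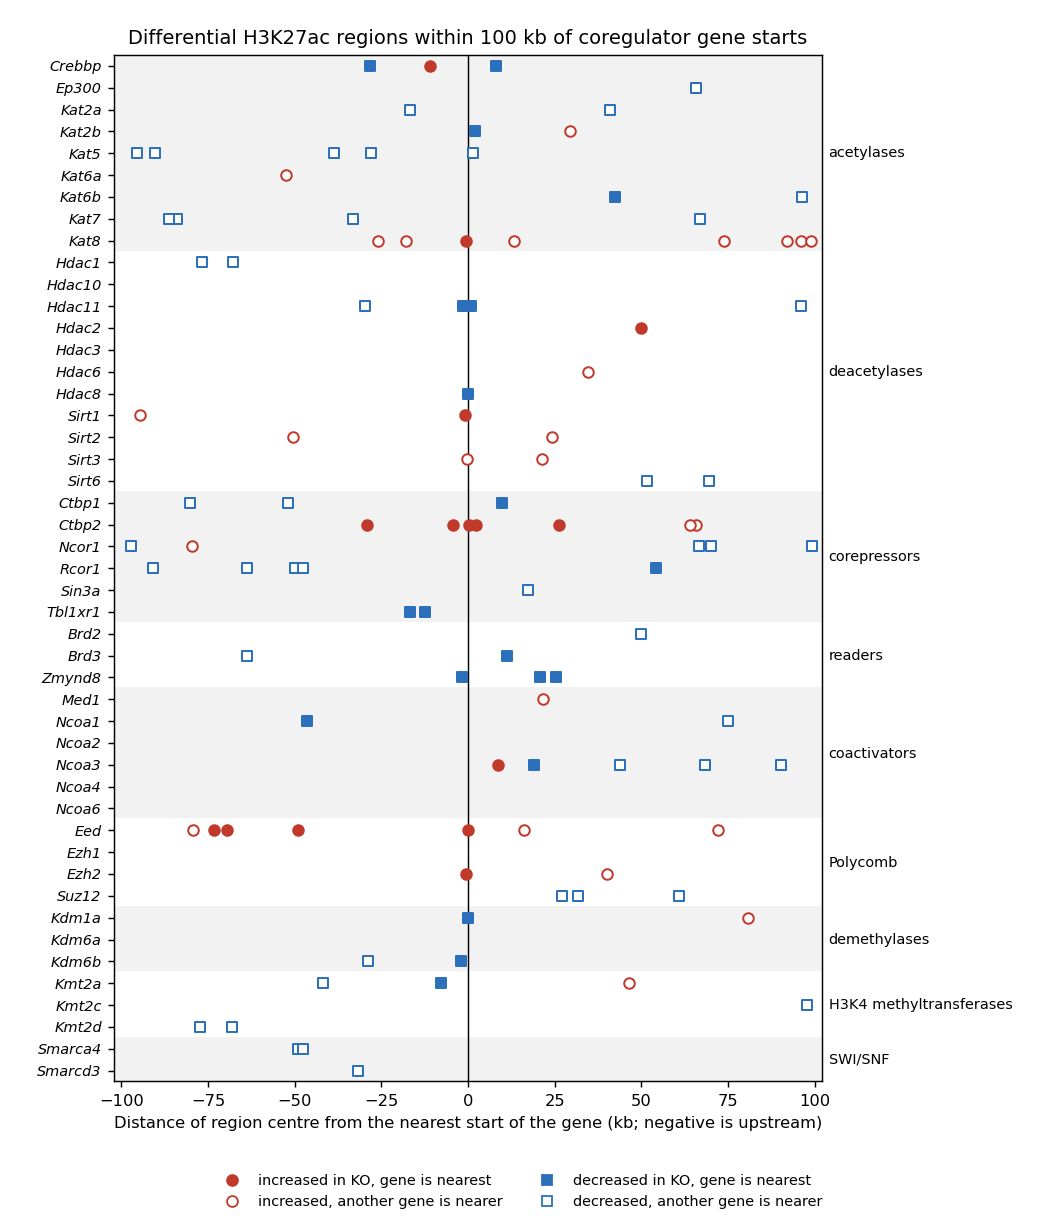
Distance in kb (x axis, negative is upstream) of every differential region within 100 kb from the nearest start of each coregulator gene (rows, grouped by class). Red circles are regions increased and blue squares regions decreased in KO myotubes, filled where the gene has the nearest start and open where another gene is nearer; the 5 distant upstream regions of Tbl1xr1 lie off the scale. Rows of 1 colour are seen for Kat8, Eed and Ctbp2 (8, 7 and 7 increased) and for Kat5 and Rcor1 (5 decreased each).

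Across the classes the nearest-start counts were small and no class was free of genes without a nearest region. Set by direction, readers, demethylases and H3K4 methyltransferases had decreased nearest regions only and Polycomb genes increased ones only, whereas acetylases, deacetylases, corepressors and coactivators had both. The single-direction classes rest on 1 or 2 genes each. Within 100 kb, Polycomb and demethylase genes showed both directions, through Suz12 and through an increased region at 80724 bp from Kdm1a, and so did the H3K4 methyltransferases through Kmt2a. Readers had decreased regions alone by both rules, and the SWI/SNF subunit genes, without a nearest region, had decreased ones within 100 kb.

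**Figure D3:**
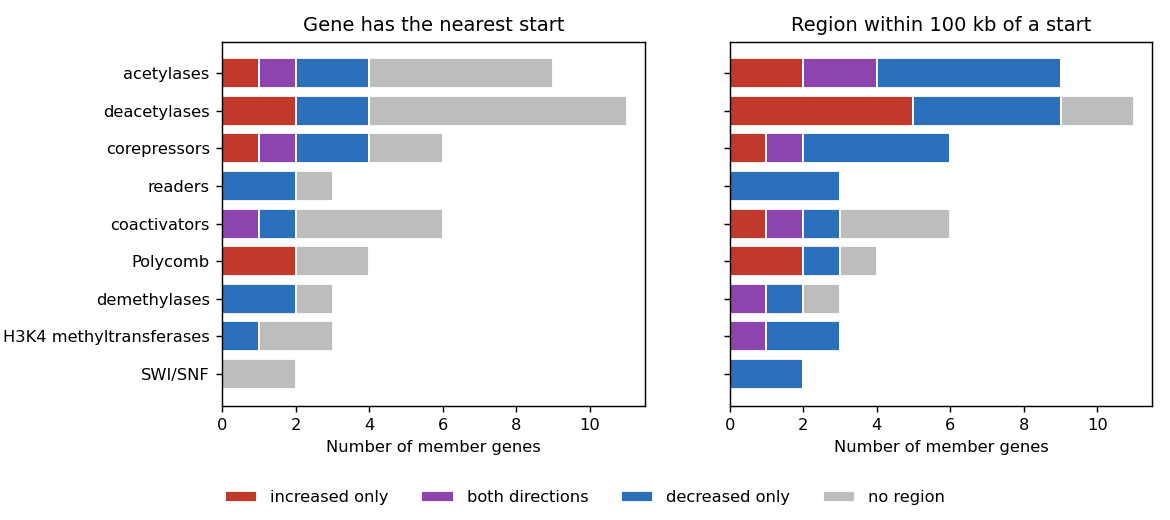
Number of coregulator genes in each class (x axis) by the direction of their regions, for regions nearest to the gene (left) and regions within 100 kb of a start (right). Red stands for increased only, blue for decreased only, purple for both and grey for no region. All 9 acetylases, 6 corepressors and 3 readers had a region within 100 kb, while 2 deacetylases and 3 coactivators had none.

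Promoters were looked at next, where the assignment of a region to a gene depends least on distance. Of the 40 nearest regions, 7 had a centre within 1 kb of a coding start (17.5%, beside 9.86% of all regions). They were increased at Eed, Ctbp2, Kat8 and Ezh2 and decreased at Kdm1a, Hdac8 and Hdac11, the last 952 bp from an internal start. The increased Sirt1 region, 1007 bp from a start, fell just outside the limit. The 7 promoter regions differed in CpG content, the density of CG dinucleotides that is high in CpG-island promoters. Kdm1a had 13.7 CpG per 100 bp, Eed 8.27 and Ctbp2 7.70. The others had less, with 3.19 at Hdac8, 2.47 at Kat8, 1.60 at Ezh2 and 0.200 at Hdac11. The median over all promoter regions was 2.26 for the 489 increased (quartiles 1.40 and 3.79) and 1.68 for the 613 decreased (quartiles 1.06 and 4.21). Kdm1a, Eed and Ctbp2 thus lay above the upper quartile of their direction, and Hdac11, whose promoter region follows an internal start, below the lower one. RefSeq promoter entries existed for 40 of the 47 genes, and among the 7 promoter regions those of Eed and Kat8 covered the RefSeq start.

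A stretch of 120 bases from each of these regions is shown, on the plus strand of GRCm38.p6 (mm10) and free of annotated exons. Every CG is in capitals, so that CpG-rich and CpG-poor stretches can be read directly. The regions of Kdm1a, Hdac8, Ezh2 and Hdac11 covered neither the outermost nor the RefSeq start. The Kat8 stretch lay upstream of the Kat8 start. The stretches therefore describe the regions and not the promoters of the genes as such.
Kdm1a, decreased, chr4:136602112-136602231: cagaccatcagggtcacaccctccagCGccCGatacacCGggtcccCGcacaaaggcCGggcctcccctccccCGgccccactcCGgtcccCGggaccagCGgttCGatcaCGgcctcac
Eed, increased, chr7:89980292-89980411: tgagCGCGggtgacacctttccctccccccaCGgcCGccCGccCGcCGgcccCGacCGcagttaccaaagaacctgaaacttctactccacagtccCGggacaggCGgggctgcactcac
Ctbp2, increased, chr7:133124066-133124185: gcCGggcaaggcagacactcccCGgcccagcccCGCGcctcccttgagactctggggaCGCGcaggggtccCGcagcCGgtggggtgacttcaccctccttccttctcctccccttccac
Hdac8, decreased, chrX:102504742-102504861: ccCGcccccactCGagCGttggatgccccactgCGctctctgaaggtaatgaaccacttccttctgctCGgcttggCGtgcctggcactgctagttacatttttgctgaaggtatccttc
Kat8, increased, chr7:127911938-127912057: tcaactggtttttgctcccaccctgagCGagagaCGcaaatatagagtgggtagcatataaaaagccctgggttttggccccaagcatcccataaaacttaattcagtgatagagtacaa
Ezh2, increased, chr6:47595859-47595978: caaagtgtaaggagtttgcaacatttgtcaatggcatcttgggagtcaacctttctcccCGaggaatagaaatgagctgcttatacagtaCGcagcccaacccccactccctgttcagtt
Hdac11, decreased, chr6:91172656-91172775: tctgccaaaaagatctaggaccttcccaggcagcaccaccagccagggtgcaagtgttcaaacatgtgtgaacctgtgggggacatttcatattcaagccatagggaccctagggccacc

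The first 3 stretches hold 11, 11 and 8 CG dinucleotides, and that of Hdac11 holds 0. CpG-rich promoter regions thus occurred in both directions, decreased at Kdm1a and increased at Eed and Ctbp2. Kdm1a lies on chromosome 4 (7.53% of regions increased) and the other 2 on chromosome 7 (97.7%), so each had the main direction of its chromosome. Outside chromosomes 4, 7, 10 and 16 the promoter regions were those of Ezh2, Hdac8 and Hdac11, none above the upper quartile for CpG.

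The other 33 regions were distal. Introns held 20 of the 40 centres (50%, beside 51.1% of all regions), intergenic sequence 11 (27.5%, beside 34.7%) and non-coding exons 2. Introns were the place of 14 of the 21 decreased but only 6 of the 19 increased regions (66.7% and 31.6%, beside 53.0% and 47.6% over all regions). The centre was inside the assigned gene itself for 26 of the 40. The median distance to the nearest start was 11822 bp, compared with 19136 bp for all regions, and 35 of the 40 were within 100 kb.

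The regions had a median width of 970 bp (quartiles 632 and 1627, range 501 to 3793), and all regions had 822 bp (quartiles 628 and 1322). Increased regions at coregulator genes had a median of 1066 bp, against 777 bp for all increased regions. Decreased ones had 822 bp, against 864 bp. The shortest deposited width of 501 bp was shared by 8 of the 40, 5 increased and 3 decreased. GC content averaged 47.4% ± 7.67 (SD over 40 regions) beside 46.5% ± 5.79 over all. It was 45.7% ± 7.20 for increased and 49.0% ± 7.90 for decreased regions, beside 43.5% ± 5.56 and 48.0% ± 5.28. The differences in mean GC content between coregulator regions and all regions were smaller than the SD over single regions. That SD does not measure the uncertainty of a mean, and the differences were not tested. The highest GC values belonged to the promoter regions of Kdm1a (76.3%), Ctbp2 (64.3%) and Eed (60.8%), and the lowest to distant regions upstream of Tbl1xr1 (36.9%, 37.3% and 38.5%).

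**Figure D4:**
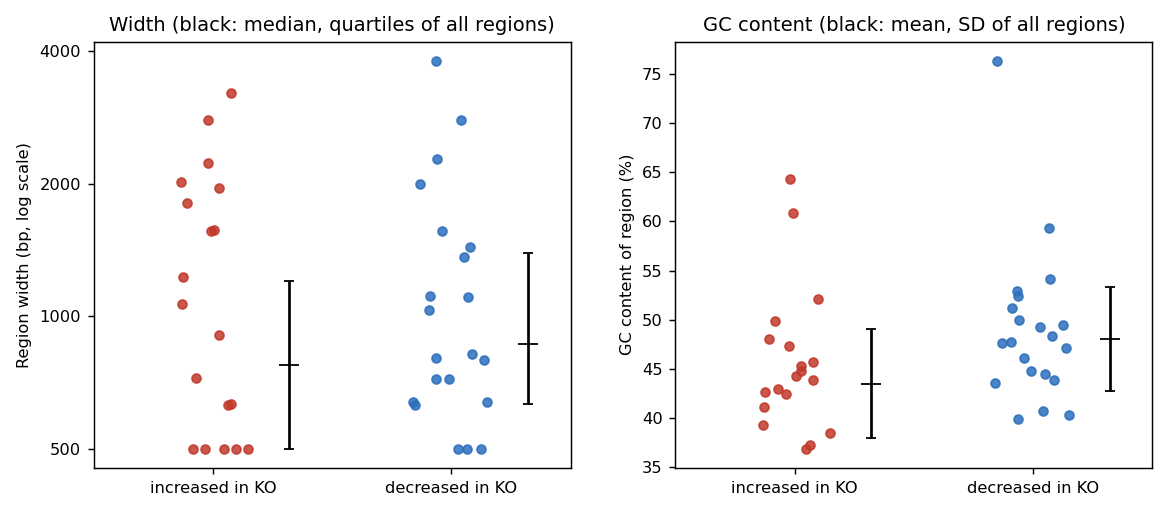
Width in bp (left, log scale) and GC content in percent (right) of the 40 regions nearest to coregulator genes, 1 point per region, by direction. Black bars give the median with quartiles of width and the mean with SD of GC content for all regions of that direction. Most points overlap the bars, and the decreased Kdm1a promoter at 76.3% stands above the other points for GC content.

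Short sequence motifs were searched as exact letters on both strands of the central 500 bp. AGGTCA, the core letters that many nuclear receptors bind and thus of interest for a nuclear receptor coregulator, was found in 8 of the 40 regions (20.0%), 5 increased and 3 decreased. Over all regions it was found in 26.2% of increased and 31.5% of decreased ones. The longer TCAAGGTCA of estrogen-related receptors, which contains AGGTCA, was found in 0 of the 40 (0.919% and 1.38% over all). CAGCTG, an E-box bound by MyoD and myogenin, was in 9 (22.5%, beside 28.8% and 37.9%). CATTCC, bound by TEAD factors, was in 10 (25.0%, beside 30.7% and 27.3%), and TGANTCA of AP-1 in 5 (12.5%, beside 24.3% and 17.9%). CTATTTATA of MEF2 was in none (1.56% and 0.523% over all). Taken by direction, AGGTCA was in 26.3% of the 19 increased and 14.3% of the 21 decreased regions, and CATTCC in 31.6% and 19.0%, so that the increased shares were close to those of all increased regions. With 40 regions these shares are imprecise, and a match is letters only and not a bound site.

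The regions with AGGTCA were at Ctbp2 (3 regions), Kat8, Tbl1xr1, Brd3, Zmynd8 and Ncoa3. For 7 of the 8, windows of 80 bases centred on the match are shown on the plus strand of GRCm38.p6, with the match in capitals (TGACCT where it is on the minus strand), to place the letters in their context. Windows at the edge of a region extend a few bases past it.
Ctbp2, increased, chr7:133059138-133059217: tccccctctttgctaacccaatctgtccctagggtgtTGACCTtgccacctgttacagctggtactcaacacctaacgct
Ctbp2, increased, chr7:133085557-133085636: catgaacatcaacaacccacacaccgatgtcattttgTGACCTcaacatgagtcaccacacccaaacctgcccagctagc
Kat8, increased, chr7:127912145-127912224: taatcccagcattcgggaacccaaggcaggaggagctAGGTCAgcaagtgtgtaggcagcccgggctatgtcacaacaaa
Tbl1xr1, increased, chr3:21580755-21580834: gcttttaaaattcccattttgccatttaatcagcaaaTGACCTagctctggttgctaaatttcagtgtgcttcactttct
Brd3, decreased, chr2:27496302-27496381: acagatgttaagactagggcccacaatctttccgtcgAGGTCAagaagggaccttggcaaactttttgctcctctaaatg
Zmynd8, decreased, chr2:165826380-165826459: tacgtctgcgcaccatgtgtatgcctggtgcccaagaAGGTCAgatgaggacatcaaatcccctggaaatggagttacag
Ncoa3, decreased, chr2:166011742-166011821: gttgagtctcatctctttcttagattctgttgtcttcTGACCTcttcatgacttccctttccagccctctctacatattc

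The 2 Ctbp2 windows shown come from the 501 bp intronic regions, and those of Zmynd8 and Ncoa3 from neighbouring genes with decreased intronic regions.

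Other coregulator genes were counted from a list of 85 that holds further subunits of the same complexes, further bromodomain proteins, arginine and lysine methyltransferases, demethylases and chromatin remodelers. The list includes Nrip1, the deleted gene, which is counted among those with decreased regions. Of the 85, 12 had an increased nearest region (14.1%) and 23 a decreased one (27.1%), 4 had both and 54 had none. Within 100 kb, 23 had an increased (27.1%) and 46 a decreased region (54.1%). The shares lie between those of the 47 genes and those of all coding genes. With 4 or more nearest regions, 3 genes stood out. Arid1b, a large SWI/SNF subunit, had 15 decreased and 1 increased region over a stretch of 884 kb on chromosome 17. Chd2, a remodeler, had 11 increased and no decreased region on chromosome 7, and Cited2, which competes for CBP and p300, had 12 increased and 1 decreased over 1518 kb on chromosome 10. The main direction at each of the 3 was that of most regions on its chromosome (21.2% increased on chromosome 17).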

How the data were processed

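H3K27ac and IgG CUT&RUN libraries (8 in 4 groups of 2) had been aligned by the authors to mm10 (BWA 2.2.1 and HOMER 4.11 per the labels). The methods name the aligner as BWA-MEM2, at the same version. HOMER was used for broad peaks and for differential regions at a 2-fold cutoff. How replicates and IgG entered the calls is not given in the sources used here. The labels and the methods name different suppliers for the H3K27ac antibody. The deposited files were 2 lists of intervals, 1 per direction, with a constant score and strand. There were no counts, fold changes or p-values, so depth is unknown, no test was run and samples entered only through the lists' direction.

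Positions were counted from 1. Regions on unplaced sequences (1) were not analysed. Genes and starts came from GENCODE release M21 (21938 protein-coding of 55413 genes), and sequence from GRCm38.p6, the assembly of mm10. Each region was assigned to the protein-coding gene whose transcript start, of any transcript, was nearest to its centre. Promoter regions lay within 1 kb of a start. The assignment was tested on simulated positions. Python 3.11.15, numpy 2.4.6, scipy 1.17.1, pysam 0.24.0 and matplotlib 3.10.9 were used.

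Members, classes, motifs, the list of 85 further coregulators and the chromosomes set aside were chosen with earlier results of these data known. Every member is named with its nearest regions, or with its closest one, and further coregulators are named with 4 or more nearest regions. Alternatives (15) covered the genes and starts allowed, distance limits, region width, merging, chromosomes and promoter distance.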

Additional observations from a re-analysis of the deposited data

How the results depend on the processing

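No paired analysis was possible because the deposited lists hold no value per library, and for the same reason no replicate could be left out. Over 15 alternative settings, 81 of 98 values stayed within 1.5 times the reported count (or within the spread over regions for width and GC content) and 17 moved. With all annotated genes as candidates, increased regions nearest to the 47 genes went from 19 to 9. With the centre required inside the gene body, there were 9 increased regions in 5 genes. The share of increased regions, 47.5% in the main setting, was 36.0% with all annotated genes and 34.6% inside gene bodies. Both values stayed within 1.5 times the reported one, yet they stood near the 35.0% of all regions. With regions at least 1 kb wide, there were 10 increased and 10 decreased regions, 5 genes with increased and 7 with decreased nearest regions, 8 and 15 genes with them within 100 kb, and 3 promoter regions. Without chromosomes 4, 7, 10 and 16, there were 6 increased regions (25.0% of the nearest regions) in 3 genes, 8 genes with increased regions within 100 kb and 3 promoter regions. Promoter regions numbered 2 with a distance of 0.1 kb and 13 with 2.5 kb. Of 24 pairs of gene and direction, all 24 were kept with distance from the region edge and with merging, 23 with protein-coding transcripts (Ctbp1 lost) and with a 100 kb limit (Tbl1xr1 increased lost), 21 with outermost starts (Crebbp increased, Ctbp1 and Kat2b lost, Sirt3 gained), 19 with all genes (Eed, Kmt2a, Ncoa1, Rcor1 and Tbl1xr1 increased lost), 17 in gene bodies, 16 without the 4 chromosomes and 12 at 1 kb or wider. The cause of these shifts lies in the construction of each alternative, which changes the genes, regions or distances allowed.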
